A study of Mus musculus with 10 samples.

Results

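The kelch genes are described here in the hearts of mouse embryos that lacked Hccs in part of their heart cells. A gene was taken as a member when its symbol began with Klhl, Kbtbd or Klhdc, followed by a number and at most 1 letter, and when at least 1 probe set of the array carried that symbol alone. This gave 49 members of the 18193 genes measured in this way: 33 Klhl, 9 Kbtbd and 7 Klhdc genes. The genes were chosen by name, with earlier results of these data known. The probe set that stands for each was selected on its mean over all 10 arrays, the brightest being taken, with no use of the genotypes. The RefSeq table of mouse genes holds 56 symbols of this form. Of the other 7, Klhdc9 and Klhdc7a had only probe sets shared with another gene, and Klhl31, Klhl3, Klhl38, Klhdc7b and Klhl34 were not analysed here.

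Kelch repeats fold into a propeller that holds another protein. In Klhl and Kbtbd proteins the propeller is joined to a BTB domain that binds cullin-3, so that the protein held by the propeller is brought to a ubiquitin ligase and marked for degradation or for a change of activity. The Klhdc proteins carry kelch repeats without a BTB domain, and some of them serve cullin-2 ligases by reading the last residues of their targets, so the 49 genes are called kelch genes and not BTB genes here. Several kelch proteins are known from striated muscle, where mutations of KLHL40, KLHL41 and KBTBD13 cause nemaline myopathy and those of KLHL24 cause cardiomyopathy.

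Affymetrix arrays were used to measure the transcripts of whole female hearts, taken at 13.5 days post coitum. Embryos of the knockout group carried 1 Hccs allele deleted conditionally in the heart. Hccs is the X-linked gene of the enzyme that attaches haem to mitochondrial cytochromes c and c1. The control group consisted of female littermates. Each group held 5 biological replicates, and each array read the pooled RNA of 4 to 5 hearts. The driver of the conditional deletion, and whether control littermates carried it or the conditional allele, are not given in the sources used here. Because 1 X chromosome is silenced in each female cell, such a heart holds cells with and without Hccs, and an array reads both together.

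Values are log2 signals, in which a difference of 1 is a doubling. A change is the knockout mean minus the control mean, tested with limma and adjusted by the Benjamini-Hochberg method over all 18193 genes, and it passed at an adjusted p under 0.05. The signal of Hccs was 11.23 ± 0.079 (SD, n = 5) in controls and 10.68 ± 0.20 in knockouts, so that it fell by 31.7% (limma adjusted p = 0.0225), with every knockout below every control. This call was lost in 4 of 10 fits with 1 array left out, among them the fit without control replicate 3, and with the 18S signal as a covariate, and the second probe set of Hccs had a change of -0.40 that did not pass (limma adjusted p = 0.0936 over all probe sets). The cardiomyocyte markers were bright in every array, and their mean over 8 genes ran from 15.09 to 15.27 in controls and from 14.81 to 15.01 in knockouts, with all 8 changes negative and Myh7 and Myl2 past the threshold. In bulk tissue, fewer cells of a type and less RNA per cell cannot be told apart. Control replicate 3 stood apart by its markers of other tissues: its mean over 8 skeletal muscle genes was 7.91, against 6.59 to 7.12 in the other controls, and its mean over 5 neuron genes was 6.48, against 3.89 to 5.03. Knockout replicate 4 had the highest mean of skeletal muscle markers among knockouts, 7.39, against 6.30 to 6.89. Liver markers also set arrays apart, with a mean over 4 genes of 10.6 and 9.61 in knockout replicates 4 and 5, against 4.98 to 6.34 in the other knockouts and 5.21 to 8.52 in controls. The control probe set for the 5′ end of 18S ribosomal RNA gave 10.05 ± 1.25 in controls and 8.17 ± 0.35 in knockouts. No hybridisation or scan batch is given in the labels. Precision is limited by the number of arrays.

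Of the 49 kelch genes, 5 fell in the knockout hearts, 0 rose and 44 did not pass. Those that fell were Kbtbd11, Klhl41, Klhdc8b, Klhl23 and Klhdc3, the least being Klhl23, which fell by 12.1%, and the most Kbtbd11, which fell by 54.6%. Over all genes 2.58% passed in either direction, 0.945% as lower and 1.63% as higher, against 10.2% of the kelch genes, all of them lower. At an unadjusted p under 0.05 the kelch genes held 12, 5 higher and 7 lower, or 24.5% of members, beside 20.6% of all genes. The groups did not overlap for 6 kelch genes, 5 lower and 1 higher, beside 5.79% of all genes in either direction and 1.92% in the lower direction. The median change of the kelch genes was -0.00009, beside 0.025 for all genes, and the median size of a change was 0.076, beside 0.082. For 27 of the 49 the change was within 0.1 of 0, beside 10274 of all 18193 genes. The 7 kelch genes with a signal below the array median in all 10 arrays were among the 27. The kelch genes thus held more falls past the threshold than the share over all genes, while their middle change was near 0. The family was chosen with earlier results of these data known, so this excess is no independent evidence of a trait of the family.

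The 5 falls were not equally firm. Leaving out 1 array at a time, Kbtbd11 stayed past the threshold in 10 of 10 fits, Klhdc8b in 4, Klhl41 in 3, Klhl23 in 2 and Klhdc3 in 1. Without knockout replicate 4 only Kbtbd11 passed, and without knockout replicate 5 Kbtbd11 and Klhdc8b did. Without control replicate 3, only Kbtbd11 passed, and with replicate 3 left out of both groups none of the 5 did (limma adjusted p = 0.0815 for Kbtbd11). Over all genes that fit called 30, in place of 469. With the 18S signal as a covariate, Kbtbd11 alone passed, with a change of -1.31 (limma adjusted p = 0.0398). The 18S signal was 7.84 to 8.57 in knockouts, 8.06 in control replicate 3 and 9.88 to 11.4 in the other controls. The covariate thus largely follows the genotype, and the fit cannot separate the 2. Its standard error for Kbtbd11 was 0.24, in place of 0.16. The part of the cardiomyocyte markers and of the 18S signal in the falls was not tested.

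**Figure D1:**
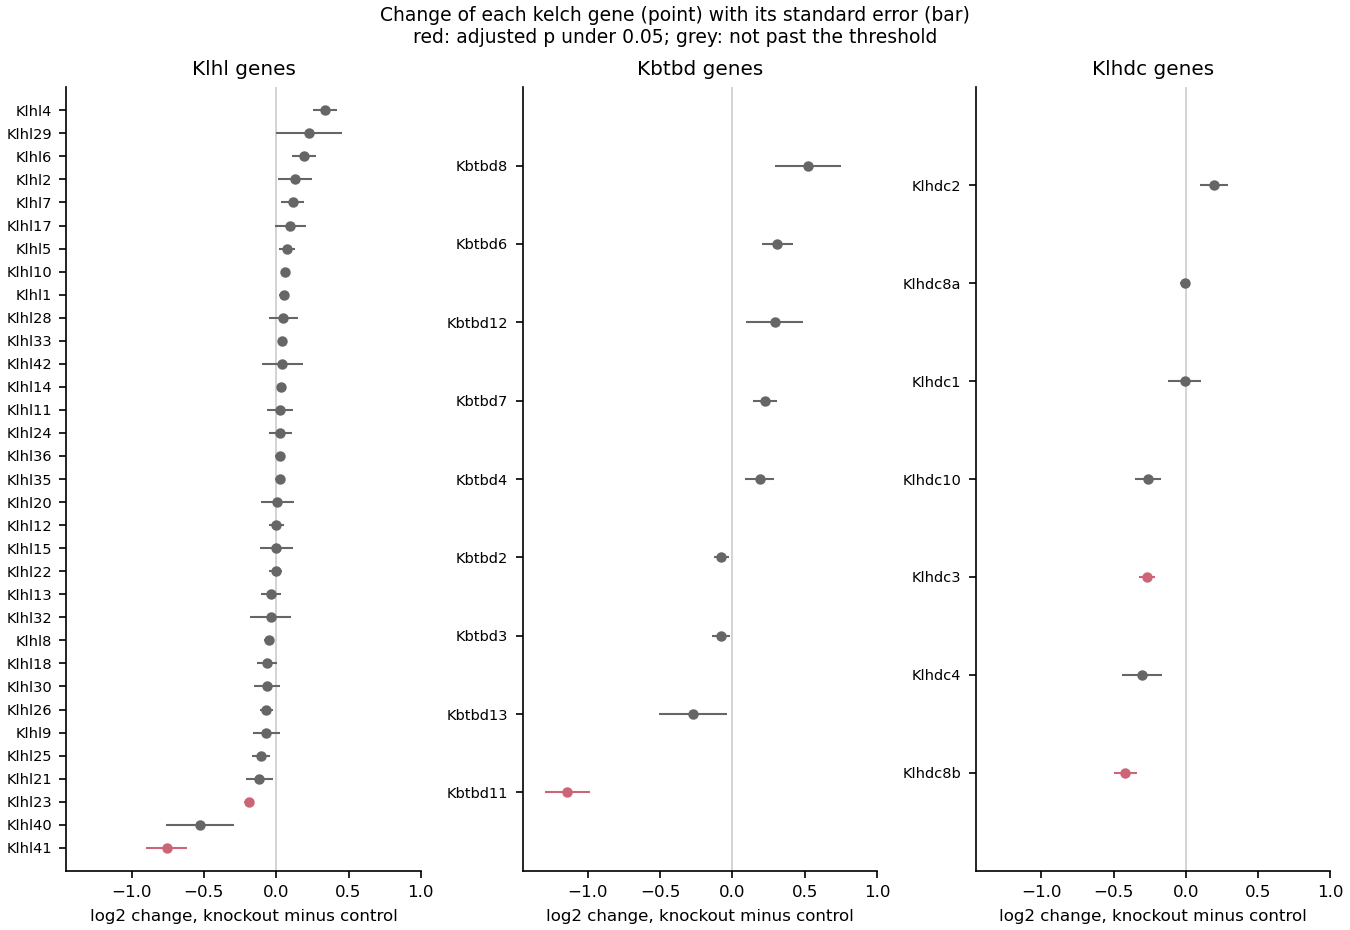
Log2 change (knockout minus control, horizontal axis) of each of the 49 kelch genes, in a panel for each name family, with bars of 1 standard error of the limma fit and red for genes with an adjusted p under 0.05. The 5 genes that passed all lie to the left of 0, from Kbtbd11 at -1.14 to Klhl23 at -0.19. Of the 49, 27 lie within 0.1 of 0, beside 10274 of all 18193 genes.

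Among the members linked to striated muscle, Klhl41 fell and the other 3 did not pass. Klhl41 encodes a protein of the sarcomere that binds nebulin and Nrap and is needed for intact muscle fibres. Its signal in control replicates 1 to 5 was 8.37, 8.45, 8.15, 8.14 and 8.51, and in knockout replicates 1 to 5 it was 7.55, 8.05, 7.53, 7.45 and 7.26. Every knockout lay below every control, with knockout replicate 2 within 0.1 of the lowest control and the other 4 well below. The means were 8.32 ± 0.17 and 7.57 ± 0.29 (SD, n = 5 each), and the signal fell by 40.8% (change -0.76, SE 0.14, limma adjusted p = 0.0292). Klhl41 is also a skeletal muscle transcript, and the part of skeletal muscle RNA in its signal was not tested. Control replicate 3, the array with the highest skeletal muscle markers, gave the second lowest of the control values, and knockout replicate 4, the knockout with the highest, gave the second lowest of the knockouts. Leaving out control replicate 3 gave a change of -0.80 (limma adjusted p = 0.0511).

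The upstream sequences of Klhl41, Klhdc8b, Klhl23 and Klhdc3 are shown because each gene fell and its window can be searched for sites of heart and muscle factors. Of the 5 genes that fell, these 4 matched an entry by symbol, and Kbtbd11 did not. They are the 250 bases before the start in the RefSeq promoter table of build GRCm38.p6, written 5′ to 3′ on the strand of the gene. Capitals mark the motifs searched, all on both strands. The core of the site of the heart factor Nkx2-5 is AAGTG. On the other strand this core reads as CACTT. Gata factors are known to bind the letters AGATAA. The E-box of basic helix-loop-helix factors such as the myogenic ones is written CANNTG. The Atf4 element is written TGATGNAAT, and the MEF2 site and the CArG box of serum response factor were searched by their usual forms. Klhl41 lies at chr2:69669870-69670119 on the + strand, Klhdc8b at chr9:108461582-108461831 on the - strand (1 of 2 starts), Klhl23 at chr2:69821691-69821940 on the + strand (1 of 3 starts) and Klhdc3 at chr17:46680931-46681180 on the - strand.
Klhl41: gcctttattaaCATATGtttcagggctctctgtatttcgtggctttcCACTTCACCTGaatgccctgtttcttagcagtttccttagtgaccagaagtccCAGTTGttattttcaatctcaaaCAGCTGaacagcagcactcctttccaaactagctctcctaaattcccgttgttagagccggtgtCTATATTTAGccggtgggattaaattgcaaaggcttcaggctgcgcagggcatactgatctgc
Klhdc8b: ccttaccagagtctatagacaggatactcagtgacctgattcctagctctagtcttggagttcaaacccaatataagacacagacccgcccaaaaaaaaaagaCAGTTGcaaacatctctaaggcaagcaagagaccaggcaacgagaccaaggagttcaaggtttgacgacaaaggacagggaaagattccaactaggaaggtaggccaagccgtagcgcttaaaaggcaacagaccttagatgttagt
Klhl23: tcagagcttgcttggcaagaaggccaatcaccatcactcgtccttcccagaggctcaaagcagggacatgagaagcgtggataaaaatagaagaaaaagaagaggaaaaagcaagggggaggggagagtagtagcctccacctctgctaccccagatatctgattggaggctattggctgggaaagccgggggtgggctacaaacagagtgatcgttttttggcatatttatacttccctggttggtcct
Klhdc3: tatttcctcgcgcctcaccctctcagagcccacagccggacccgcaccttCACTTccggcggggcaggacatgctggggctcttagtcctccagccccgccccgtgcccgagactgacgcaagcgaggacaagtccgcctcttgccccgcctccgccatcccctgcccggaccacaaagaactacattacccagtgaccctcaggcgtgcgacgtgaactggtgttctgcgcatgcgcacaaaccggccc

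The Klhl41 window held 4 E-boxes, an AAGTG on the opposite strand directly before an E-box, and the MEF2 site CTATATTTAG at positions -63 to -54 from the start. Windows of 300 bases, 250 before and 50 after a start, were compared, and the table held 55 of them for 42 of the 49 kelch genes and 32851 in all. A MEF2 site stood in 3 of the 55 kelch windows (5.45%), beside 3.19% of all windows. Those 3 belonged to Klhl41, Kbtbd12 and Klhl33, and Kbtbd12 had a change of 0.29 that did not pass (limma adjusted p = 0.423), while Klhl33 lay below the median of every array. AAGTG stood in 47.3% of kelch windows and 46.4% of all, CANNTG in 60% and 72.3%, and AGATAA in 5.45% and 11.2%. TGATGNAAT and the CArG box were found in 0 of the 55 kelch windows, beside 0.965% and 1.63% of all. The stretch printed for Klhl23 held no motif, but an AAGTG lay after that start, at positions 7 to 11. Windows at its other starts held an AAGTG and E-boxes. Klhdc8b had further E-boxes after the start used here and in the window of its other start. A match is a string of letters and not a shown binding site.

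Klhl40, which stabilises nebulin and Lmod3 in the thin filament, gave 3.42, 3.47, 3.60, 3.67 and 3.68 in controls and 3.04, 2.41, 3.63, 3.58 and 2.56 in knockouts. Knockout replicates 3 and 4 lay among the controls and the other 3 below them, all at signals near or under the array medians of 3.65 to 3.76 (change -0.52, SE 0.23, limma adjusted p = 0.242). Kbtbd13, a muscle-specific adaptor, gave 4.42, 3.48, 3.42, 4.21 and 3.87 in controls and 3.39, 3.10, 3.62, 4.05 and 3.86 in knockouts, with wide overlap (change -0.27, SE 0.24, limma adjusted p = 0.527). Its other probe set, below the array medians, had a change of 0.12, with knockout replicate 1 at 3.12 against 2.20 to 2.22 in the other knockouts.

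Klhl24, an adaptor whose known targets include intermediate filament proteins, read differently on its 5 probe sets. The brightest gave 10.09 ± 0.15 in controls and 10.11 ± 0.11 in knockouts, a change of 0.029 (SE 0.080, limma adjusted p = 0.858). The next brightest gave 9.32, 9.43, 9.38, 9.36 and 9.09 in controls and 9.06, 8.72, 8.91, 8.88 and 8.85 in knockouts, all knockouts below all controls. Its change of -0.43 passed when every probe set was tested on its own (limma adjusted p = 0.0314), where 1.71% of 34945 probe sets passed. The other 3 had changes of 0.018, 0.64 and -1.27, none past the threshold. The direction for Klhl24 therefore depended on the probe set, and which transcripts each probe set reads was not tested.

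Kbtbd11 had the largest fall of the 49. It is a BTB and kelch protein of the same build as the other adaptors. Controls gave 7.63, 7.52, 7.40, 7.03 and 6.95, and knockouts 6.48, 6.0, 5.91, 6.33 and 6.11. All knockouts lay below the lowest control, and the spread among controls was wider than that among knockouts. The means were 7.31 ± 0.30 and 6.17 ± 0.23 (SD, n = 5 each), and the signal fell by 54.6% (change -1.14, SE 0.16, limma adjusted p = 0.0156). The other 3 probe sets of Kbtbd11 lay below the array medians and had changes of 0.024, 0.031 and 0.036, so the fall rests on 1 probe set.

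Klhdc8b, whose protein is found at the midbody and is needed for cells to separate after mitosis, gave 9.58, 9.92, 9.73, 9.62 and 9.81 in controls. Knockouts gave 9.15, 9.37, 9.25, 9.34 and 9.47, all below the lowest control. Klhdc8b fell by 25.2% (change -0.42, SE 0.078, limma adjusted p = 0.0294) on its only probe set.

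Klhl23 had the narrowest spread among the controls of the 5 that fell. Its control values of 11.01, 11.04, 11.04, 11.07 and 11.05 spanned less than 0.1, and the knockouts stood at 10.77, 10.94, 10.82, 10.87 and 10.87. Klhl23 fell by only 12.1% (change -0.19, SE 0.036, limma adjusted p = 0.0313), and the groups did not overlap. Its call was lost under more of the alternatives than those of the other 4, 16 of 23, among them median centring (limma adjusted p = 0.0618).

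**Figure D2:**
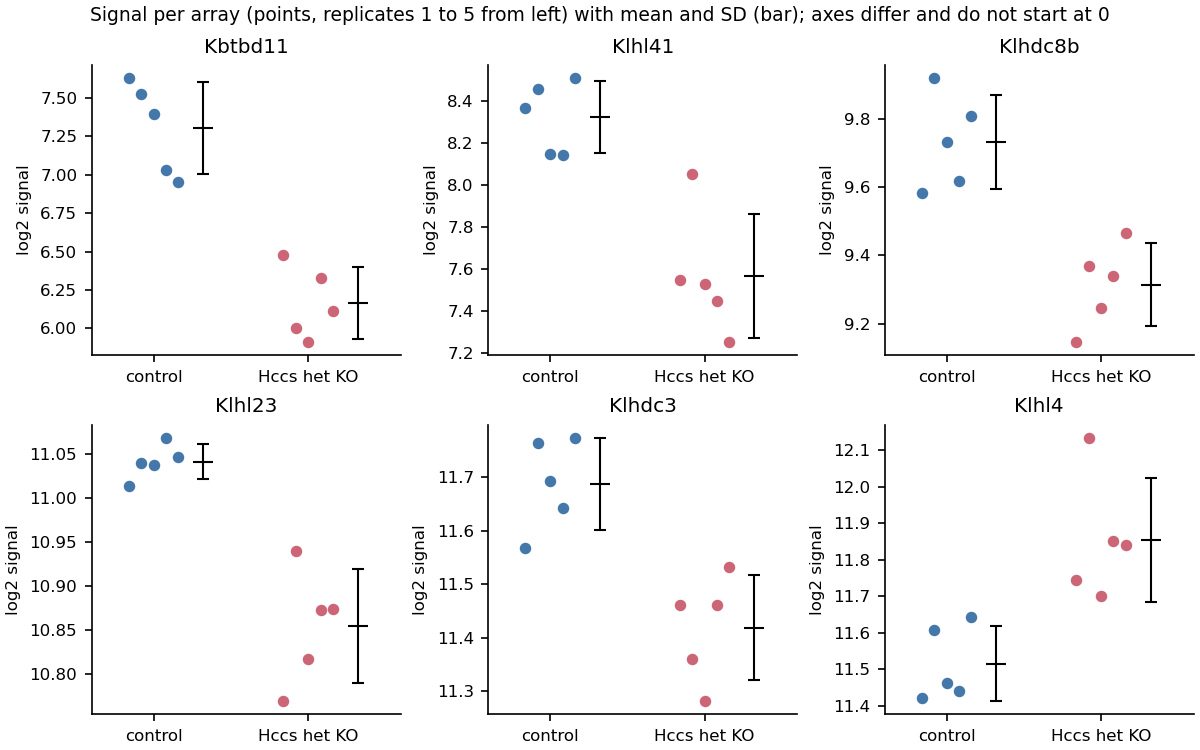
Log2 signal (vertical axis) of 6 kelch genes in each control (blue) and knockout (red) array, with the mean and SD of each group as a bar. For Kbtbd11, Klhl41, Klhdc8b, Klhl23 and Klhdc3 every knockout point lies below every control point, and for Klhl4 every knockout point lies above.

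Of the 3 members known as cullin-2 receptors for C-terminal degrons, Klhdc3 fell and the other two did not pass. Klhdc3 gave 11.57, 11.76, 11.69, 11.64 and 11.77 in controls and 11.46, 11.36, 11.28, 11.46 and 11.53 in knockouts. The highest knockout, replicate 5, came within 0.1 of the lowest control, replicate 1. Klhdc3 fell by 17.0% (change -0.27, SE 0.058, limma adjusted p = 0.0445), and all 4 of its probe sets had negative changes, from -0.27 to -0.042. When every probe set was tested on its own, the brightest one missed the threshold (limma adjusted p = 0.0507).

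Klhdc10 gave 9.46, 9.69, 9.71, 9.73 and 9.58 in controls and 9.40, 9.21, 9.25, 9.36 and 9.65 in knockouts. Knockout replicate 5 lay among the controls and the other 4 below all of them (change -0.26, SE 0.087, limma adjusted p = 0.140). The other probe sets of Klhdc10 had changes of only -0.051 and -0.059 (limma adjusted p = 0.843 and 0.892 over all probe sets). Klhdc2 had the opposite sign on all 4 of its probe sets, 0.19 on the brightest (SE 0.094, limma adjusted p = 0.274). On 1 of the others, at a change of 0.31, every knockout lay above every control (limma adjusted p = 0.0638 over all probe sets). The second brightest had a change of only 0.0024 (limma adjusted p = 0.983 over all probe sets). The dimmest, below the array medians, had a change of 0.055. Over the 7 Klhdc genes, 2 fell, or 28.6%, beside 0.945% of all genes. Their changes were negative in 6 of 7, beside 7184 of 18193 genes in all, and the median change was -0.26. Among the negative ones, Klhdc1 at -0.0078 and Klhdc8a at -0.0047 were near 0. Klhdc8a also lay below the array median in every array.

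No kelch gene rose by the brightest probe set, and Klhl4 came nearest. Klhl4 is an X-linked member, like Hccs. It gave 11.42, 11.61, 11.46, 11.44 and 11.64 in controls and 11.74, 12.13, 11.70, 11.85 and 11.84 in knockouts, all knockouts above all controls. The change was 0.34 (SE 0.083), or 1.26-fold (limma adjusted p = 0.0655), and it passed when genes under the median level were left out or when arrays were weighted. Its other probe set, near the array medians, had a change of -0.066. The other 2 X-linked members, Klhl13 and Klhl15, had changes of -0.035 and -0.00071 on their brightest probe sets (limma adjusted p = 0.804 and 0.998).

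Of 7 members with targets in signalling and metabolism, none passed, and the 3 with an unadjusted p under 0.05 were all Kbtbd genes with higher values in knockouts. Kbtbd6 and Kbtbd7 lie side by side in the genome and work together on Tiam1, an activator of Rac1. Kbtbd6 gave 4.06, 4.37, 3.91, 4.03 and 4.03 in controls and 4.12, 4.44, 4.60, 4.27 and 4.51 in knockouts, overlapping through control replicate 2 (change 0.31, SE 0.11, limma adjusted p = 0.152). The brightest probe set of Kbtbd7, of a kind that may also match related transcripts, gave 9.82, 9.76, 9.41, 9.66 and 9.73 in controls and 9.73, 9.83, 9.92, 10.01 and 10.01 in knockouts (change 0.23, SE 0.084, limma adjusted p = 0.176). Knockout replicate 1 lay among the controls and the other 4 above them.

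The second probe set of Kbtbd7 separated the groups. It gave 7.71, 7.86, 7.89, 7.75 and 7.78 in controls and 8.07, 8.49, 8.57, 8.43 and 8.10 in knockouts, a change of 0.53 (SE 0.10) that passed among all probe sets (limma adjusted p = 0.0402). Kbtbd7 was thus called higher by this probe set and not by the brightest, and both changes were positive. The remaining, dim probe set had a change of 0.032.

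Kbtbd8, which acts on the ribosome factors Tcof1 and Nolc1, gave 5.35, 4.54, 4.57, 4.45 and 4.46 in controls and 4.93, 5.27, 5.48, 4.64 and 5.67 in knockouts. Control replicate 1 lay well above the other 4 controls, and without that array the change was 0.69 in place of 0.52, still short of the threshold. Kbtbd4, Kbtbd2, Klhl25 and Klhl15 had changes of 0.19, -0.076, -0.10 and -0.00071, none past the threshold. Klhl25 acts on the translation repressor 4E-BP1 and Kbtbd2 on the kinase subunit Pik3r1.

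**Figure D3:**
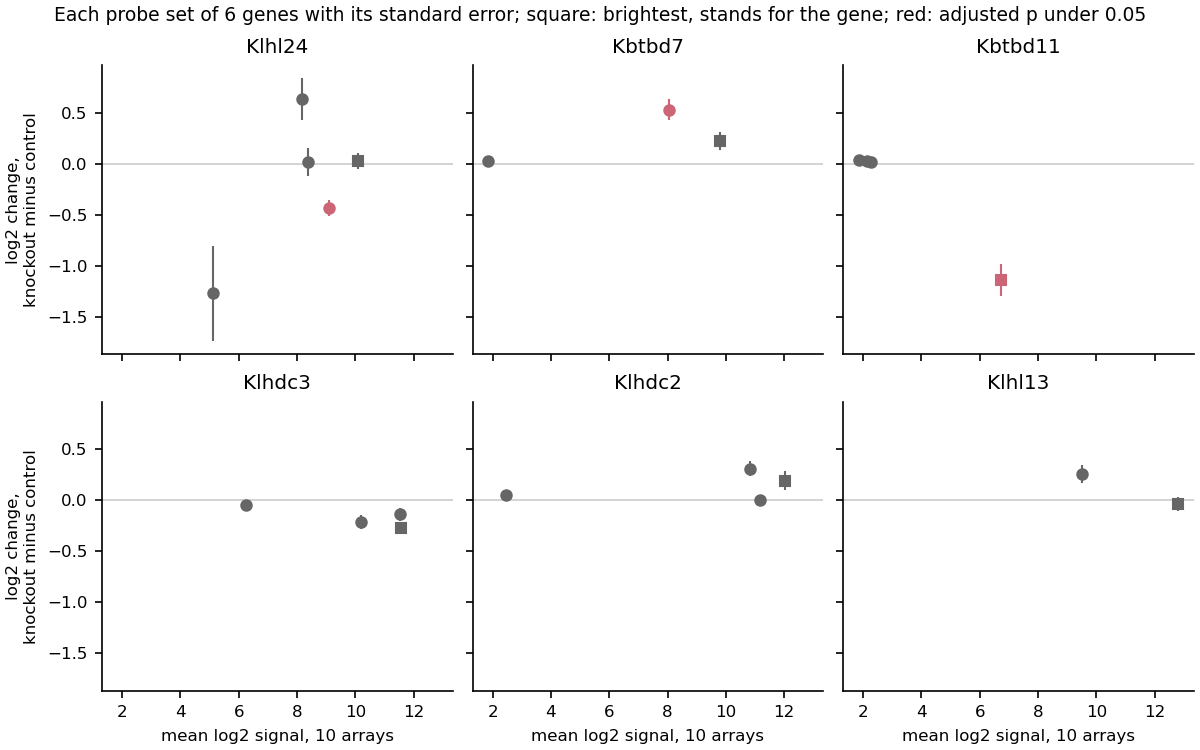
Log2 change (knockout minus control) of every probe set of 6 kelch genes against its mean log2 signal over the 10 arrays, with bars of 1 standard error, squares for the brightest probe set and red for an adjusted p under 0.05 over all probe sets. The 5 probe sets of Klhl24 run from -1.27 to 0.64, and those of Kbtbd7 all lie above 0.

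Of the 6 members listed for mitosis and the cytoskeleton, none passed. Klhdc8b, which fell and acts in cell division, was not on that list. Klhl9, Klhl13 and Klhl21 act on the kinase Aurora B, Klhl18 on Aurora A, Klhl22 on Plk1 and Klhl42 on the microtubule cutter katanin. None of the 6 had an unadjusted p under 0.05, beside 20.6% of all genes. Of their changes, 5 of 6 were within 0.1 of 0, beside 10274 of all 18193 genes. The widest was -0.12 for Klhl21 (SE 0.095). So few genes say little beside these shares. Klhl22, for example, stood at 10.39 ± 0.074 in controls and 10.39 ± 0.068 in knockouts. A second probe set of Klhl13 had a change of 0.26 (limma adjusted p = 0.158 over all probe sets).

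The same held for Klhl12, an adaptor of the coat protein Sec31 and of Dishevelled, at 7.61 ± 0.093 and 7.61 ± 0.066, and for Klhl20, which acts on Ulk1, Dapk1 and Pml, with a change of 0.0089 (SE 0.12). Klhl2, which with Klhl3 holds the level of WNK kinases, had a change of 0.13 (SE 0.12, limma adjusted p = 0.547). Its second probe set was higher in every knockout than in any control, by 0.47 (limma adjusted p = 0.103 over all probe sets). 

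Klhl6, known from B cells, gave 9.25, 9.10, 9.09, 9.22 and 9.20 in controls and 9.43, 9.35, 9.14, 9.29 and 9.62 in knockouts. Knockout replicate 3 lay among the controls and the other 4 above them (change 0.19, SE 0.082, limma adjusted p = 0.222).

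Of the remaining members, Klhdc4, Kbtbd12 and Klhl29 had changes of -0.31, 0.29 and 0.23, each with overlap between the groups (limma adjusted p = 0.251, 0.423 and 0.593). Klhl5, Klhl7, Klhl8, Klhl11, Klhl17, Klhl26, Klhl28, Klhl30, Klhl32, Kbtbd3 and Klhdc1 had changes between -0.078 and 0.12. For 7 members, Klhl1, Klhl10, Klhl14, Klhl33, Klhl35, Klhl36 and Klhdc8a, the signal lay below the array median in all 10 arrays, 14.3% of members beside 34.8% of all genes, and their values carry no reading of a change. Of the 28 members with several probe sets, 16 had probe sets that differed in sign. Most of these 16 had a probe set with a mean below the array medians.

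Kbtbd11, Kbtbd13, Klhl4, Klhl13 and Klhl24 were 5 of these 16. In the other 11 no probe set passed. Against the changes of the brightest given above, the other probe sets had changes of 0.087 for Klhl15, 0.15 for Klhl25, 0.0069 for Klhl18, 0.022 for Klhl21, 0.11 for Klhl22 and 0.0079 for Klhdc4. All of these other probe sets had means below the array medians, so their signs carry no reading of a change. Klhl8 had changes of -0.048 and 0.081, Klhl17 of 0.097 and -0.094, and Klhl11 of 0.029, -0.17 and -0.0041. The last of Klhl11 came from a probe set below the array medians. Klhl32 had changes of -0.038, 0.029 and -0.033. Klhl28 had the widest of these, 0.049, -0.36, 0.076 and 0.20, the second on a probe set of mean signal 7.19 (limma adjusted p = 0.379 over all probe sets). The last of Klhl28 came from a probe set below the array medians.

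Of the machinery that the kelch adaptors serve, a single gene passed. Of 28 listed genes for cullin-2, cullin-3, the NEDD8 cycle, the signalosome and partner enzymes, 27 were measured, 1 rose, 0 fell and the median change was 0.046. The shares over all genes were 1.63% higher and 0.945% lower, with a median change of 0.025. The gene that rose was Uba3, the catalytic subunit of the enzyme that activates NEDD8. It gave 11.77, 12.08, 11.76, 12.04 and 11.94 in controls and 12.09, 12.67, 12.40, 12.55 and 12.41 in knockouts, with knockout replicate 1 just above the highest control. The change was 0.51 (SE 0.11) or 42.0% (limma adjusted p = 0.0450), and it passed in 1 of 10 fits with an array left out. Cul3 itself had a change of 0.064 (SE 0.033, limma adjusted p = 0.308) and Cul2 by -0.018 (SE 0.045). Ube2d2a, a ubiquitin-conjugating enzyme, had a change of 0.48 and Arih1, a ligase that works on neddylated cullins, one of -0.16, neither past the threshold (limma adjusted p = 0.0667 and 0.120).

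Of 15 other cullin-3 adaptors without the kelch names above, 14 were measured, 0 rose, 1 fell and the median change was 0.0075. The share called lower over all genes was 0.945%. Rhobtb1, an adaptor with BTB domains, stood at 9.72, 9.66, 9.64, 9.60 and 9.68 in controls and at 9.41, 9.34, 9.33, 9.49 and 9.46 in knockouts. All knockouts were below all controls, with a change of -0.26 (SE 0.042, limma adjusted p = 0.0225), but the direction did not hold on its most variable probe set (0.080). The call was lost in 4 of 10 fits with 1 array left out, among them the fit without control replicate 3. It was also lost with the mean of its probe sets and with the 18S signal as a covariate. Lztr1, an adaptor for Ras proteins, and Rhobtb3 had changes of 0.40 and -0.15 without passing (limma adjusted p = 0.0661 and 0.157), and Keap1, the adaptor of Nrf2, had a change of 0.088 (limma adjusted p = 0.713).

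All 29 listed targets and partners of kelch proteins were measured, 0 rose, 2 fell and the median change was -0.11. Among all genes 0.945% were called lower, and the median change was 0.025. Pik3r1, the target of Kbtbd2, gave 8.42, 8.51, 8.38, 8.44 and 8.37 in controls and 8.10, 7.81, 8.07, 7.87 and 7.65 in knockouts, with a clear gap between the groups. It fell by 30.3% (change -0.52, SE 0.082, limma adjusted p = 0.0208), while Kbtbd2 did not pass. The call was lost with the mean of its probe sets, on its most variable probe set, with the 18S signal as a covariate, and without control replicate 1 or knockout replicates 2 or 4.

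Flnc, a filamin of the Z-disc listed here with the muscle partners of kelch proteins, gave 9.86, 9.91, 10.34, 9.76 and 9.85 in controls and 9.55, 9.38, 8.99, 9.39 and 9.18 in knockouts. Control replicate 3, the array with the highest skeletal muscle markers, was the highest. Flnc fell by 36.1% (change -0.65, SE 0.13, limma adjusted p = 0.0373), and it passed in 1 of 10 fits with an array left out. The call was lost without control replicate 3. Nrap and Des, also of the muscle cytoskeleton, had changes of -0.52 and -0.37 without passing (limma adjusted p = 0.206 and 0.120).

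Wnk1, the target of Klhl2, had a change of -0.55 (SE 0.13, limma adjusted p = 0.0544), and Nolc1, a target of Kbtbd8, by 0.37 (SE 0.089, limma adjusted p = 0.0609), with every knockout above every control. Neb was dim apart from control replicate 3, and its signal showed no difference past the threshold (limma adjusted p = 0.728).

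**Figure D4:**
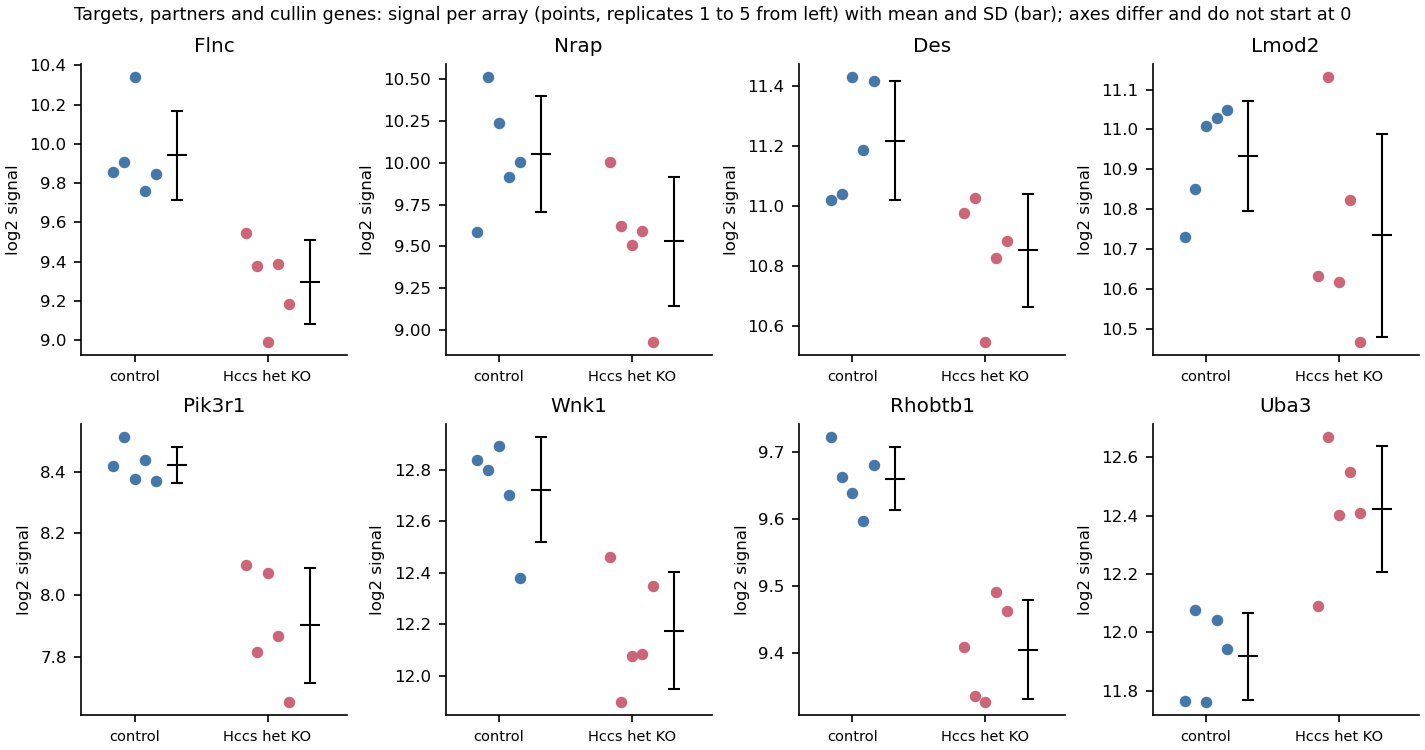
Log2 signal (vertical axis) of 8 targets, partners and cullin genes in each control (blue) and knockout (red) array, with the mean and SD of each group as a bar. Uba3 is higher in all 5 knockouts than in any control, and Rhobtb1, Pik3r1 and Flnc are lower.

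The count of kelch genes past the threshold moved with the arrays used, between 1 and 5 lower when 1 array was left out. Without knockout replicate 1, all 5 falls held and Klhl4 was called higher, and over all genes 1042 then passed in place of 469.

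**Figure D5:**
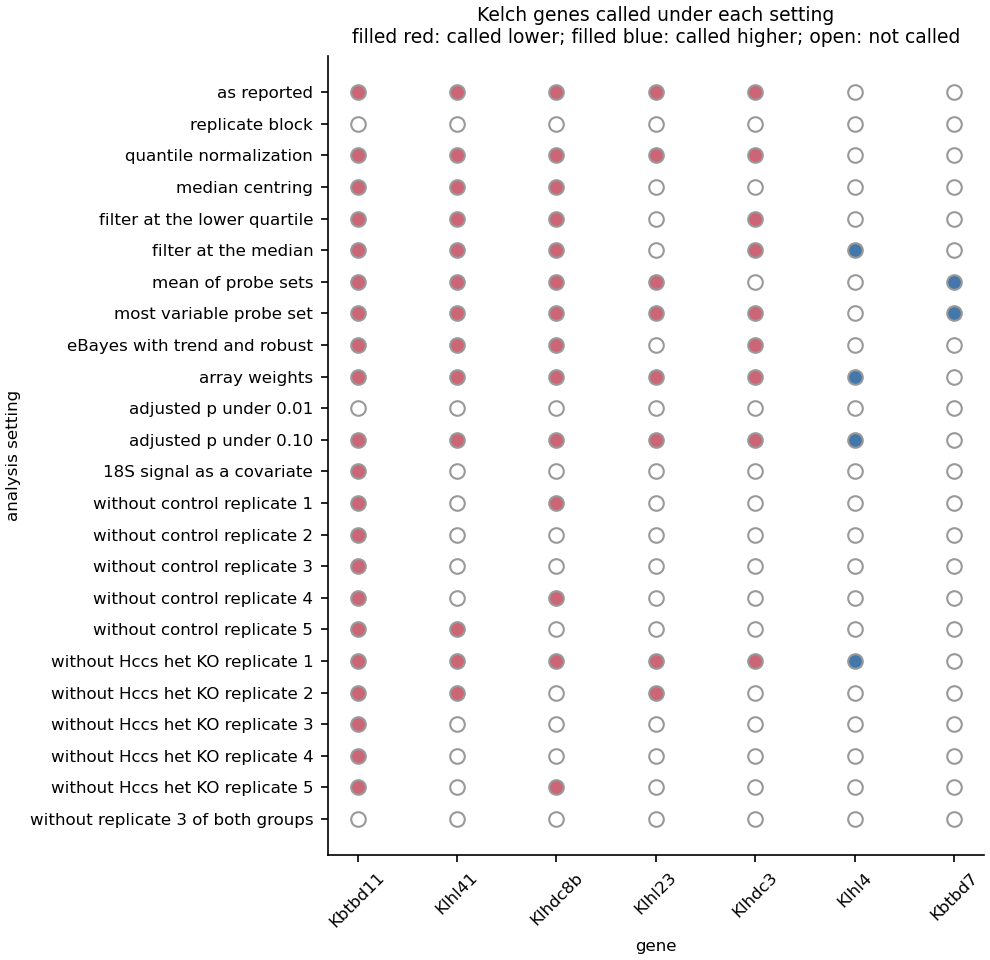
Kelch genes called lower (red), called higher (blue) or not called (open) under each analysis setting (rows). As reported 5 were lower and 0 higher, and no setting shown gave more than 5 lower or more than 1 higher.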

How the data were processed

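Pooled RNA of female mouse hearts was measured on 10 arrays, 5 per genotype. The signals deposited by the authors are on a log2 scale. RMA and Partek are named in the labels, per the submitters' processing notes, without versions. RMA brings the arrays close to 1 distribution, which hides any difference in total RNA. The array medians of the deposited values still ran from 3.65 to 3.76. Quantile normalization of these values changed the calls over all genes from 297 higher and 172 lower to 230 and 186. Its background option is not given, and low signals may be compressed.

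Only probe sets with a single gene symbol in the platform annotation were used, without array controls, and the brightest over 10 arrays stood for a gene. Changes were fitted with limma 3.58.1 under R 4.3.3 (lmFit, eBayes, genotype alone, two-sided tests, Benjamini-Hochberg over 18193 genes, no filter), with code tested on simulated data. Gene lists are described by counts and medians.

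The members and lists were chosen with earlier results of these data known. Values on every array are given for members past the threshold, the 6 next by p and the striated muscle group. Members whose probe sets differ in sign or call are given with each of them. Of each pathway list, genes past the threshold and the 2 next by p are named, with Hccs. Other pathway genes named (Cul3, Cul2, Keap1, Nrap, Des, Neb) and the neighbours on chromosome 2 were chosen after their values were seen. Alternatives covered a replicate block, normalization, filters, probe set rules, thresholds, eBayes options, array weights, an 18S covariate and arrays left out. Promoter sequences are from RefSeq, build GRCm38.p6. Plots used matplotlib 3.10.9.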

Additional observations from a re-analysis of the deposited data

Results flagged for a closer look

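In 5 of 120 groups of 5 arrays, 1 array lay far from the other 4, judged by its gap to the nearest of them as a share of the group's range, with 0.71 as the limit. Chance flags about 1 in 20 groups. For Kbtbd8 the share was 0.868, from control replicate 1 at 5.35 against 4.45 to 4.57 in the other controls. For Klhdc1 it was 0.797, from the same array at 7.63 against 7.98 to 8.07. For Klhl18 it was 0.757, from knockout replicate 4 at 5.65 against 5.80 to 5.85. For Flnc it was 0.748, from control replicate 3 at 10.34 against 9.76 to 9.91. For Kbtbd3 it was 0.714, from knockout replicate 3 at 5.64 against 5.90 to 6.0. None of these 5 groups belongs to a kelch gene that passed the threshold.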

How the results depend on the processing

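As reported, 5 kelch genes were lower and 0 higher, and 469 of all genes passed. The lower count was 3 after median centring, 1 with the 18S signal as a covariate, 0 at an adjusted p under 0.01, and 1 to 5 with 1 array left out (0 without replicate 3 of both groups). The higher count was 1 with the filter at the median, the mean of probe sets, the most variable probe set, array weights, an adjusted p under 0.10 and every probe set on its own, and 0 to 1 with 1 array left out. Pathway genes called higher, 1 as reported, numbered 4 with the filter at the median and at 0.10, 3 with array weights, 2 with trend and robust eBayes, 0 with the mean of probe sets and at 0.01, and 0 to 3 with 1 array left out (0 without replicate 3 of both groups). Those called lower, 3 as reported, numbered 1 with the mean of probe sets, 0 at 0.01, and 0 to 5 with 1 array left out (0 without replicate 3 of both groups). Same-numbered arrays did not deviate together (correlations -0.091 to 0.077, 2 of 10 arrays closest to their own number). With the replicate number as a block, 0 kelch genes were lower, 0 pathway genes were lower and 36 of all genes passed. Over all genes 759 passed with the filter at the median, 945 with array weights, 1160 at 0.10, 14 at 0.01, 296 with the 18S covariate and 105 to 1042 with 1 array left out. The sign turned for Klhl24 (-0.20 with the mean of probe sets, -1.27 on the most variable, -0.015 without control replicate 1, and from -0.019, without knockout replicate 4, to 0.081 with 1 array left out), Ube2d2a (-0.72) and Rhobtb1 (0.080) on the most variable, and Rhobtb3 (0.43 with the mean, 0.88 on the most variable). The cause was not tested, beyond the fewer arrays or other probe sets these settings use. Signal over background was not given, so low signals have no detection call.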

Other observations

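Klhl41 and Klhl23, both among the 5 kelch genes that fell, lie near each other on chromosome 2 in the RefSeq gene order, with the protein-coding genes Fastkd1, Ppig, Ccdc173 and Phospho2 between them. Those 4 did not pass the threshold, with changes of 0.047, -0.020, 0.13 and 0.11 (limma adjusted p = 0.716, 0.911, 0.267 and 0.391). Bbs5, on the far side of Klhl41, had a change of 0.31 without passing (limma adjusted p = 0.242). Ssb, which encodes the La RNA-binding protein and follows Klhl23, rose by 0.43 (limma adjusted p = 0.0291), with every knockout above every control.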
